A study of Caenorhabditis elegans with 2 samples.

Results

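The subject is a set of 31 early embryonic lineage transcription factors of the nematode Caenorhabditis elegans, chosen by name because they are switched on from the embryo's own genome in particular lineages of the early embryo. All 31 were found among the 19973 protein-coding genes of the Ensembl release 115 annotation (assembly WBcel235, the ce11 build), and they were divided into 6 groups by lineage. The protein F13C5.2 had been mapped in embryos by ChIP-seq, a method that pulls down a protein together with its DNA and reads that DNA by sequencing. The series has 1 group of samples, taken as biological replicates 2 and 3, and no second condition. The animals were of strain OP605, which has the mutation unc-119(tm4063) on chromosome III and the insertion wgIs605, a transgene that stably expresses F13C5.2 with a GFP-FLAG tag at its C terminus. Both replicates were whole embryos of mixed sex, collected 1 hour after synchronization by bleaching, and the antibody recognised GFP. The protein recovered was therefore the tagged transgene product in 1 strain, and the DNA came from all cells of the embryos at once. Fewer cells with the protein at a site and less protein at that site in each cell cannot be told apart in such material.

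Embryonic cell fates in this nematode are laid down by short cascades of transcription factors. Factors supplied by the mother switch on a first tier of zygotic genes in single founder cells, and these switch on the tissue regulators that hold the fate. The cascade of the gut, from the med genes through end-1 and end-3 to elt-7 and elt-2, is the textbook case, and each tier consists of GATA-type zinc-finger proteins that often act in redundant pairs. F13C5.2 is described as a bromodomain protein, and bromodomains of other proteins are known to bind acetylated lysines of histones.

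The values are peaks that the authors deposited: 30000 ranked peaks for replicate 2, 30000 for replicate 3, 30000 for the reads of both replicates together (the pooled list) and 1850 in an optimal list thresholded by the irreproducible discovery rate (IDR), which compares ranks between replicates. The 1850 IDR peaks were the 1850 highest of the pooled list. The lists of 30000 were deposited as peaks and background for the IDR procedure, so their lower ranks may hold background. Each peak has a summit and a signal score, the authors' own value on a scale not given in the sources used here, so scores were read only as ranks within 1 list. The scores ran from 17.5 to 611 in the pooled list, from 10.5 to 307 in replicate 2 and from 11.9 to 338 in replicate 3, and the lowest IDR peak had 77.9. The read depth is unknown. A gene was counted when a summit lay in one of its promoter windows, from 1000 bp upstream to 200 bp downstream of an annotated 5′ end, and its best peak was the one with the highest score. In the window of the tagged gene itself the best pooled peak ranked 22 (signal 355), with ranks of 38 in replicate 2 and 5 in replicate 3. Copies of that locus in the transgene could add reads there, and their part was not tested.

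Most promoters of the lineage regulators held no summit of F13C5.2, and where one was present it was usually of middle to low rank. A pooled summit lay in a window of 9 of the 31 genes (29%), beside 39.2% of all protein-coding genes. The 9 were tlp-1, hlh-1, elt-1, ref-1, pha-4, hlh-3, unc-120, die-1 and tbx-37. An IDR summit lay in a window of 1 of the 31, tlp-1 (3.23%), beside 8.51% of all genes. The lists of single replicates did not order the set in the same way against the genome. In replicate 2 the count was 13 of 31 (41.9%), beside 41.1% of all genes, and in replicate 3 it was 8 of 31 (25.8%), beside 39.6%. Both replicates had a summit in the window for 7 of the 31 (22.6%), beside 28.6% of all genes. The best pooled summit had a summit of each replicate within 100 bp for 4 of the 31 (12.9%), beside 18.2% of all genes. These 4 were tlp-1, hlh-1, ref-1 and pha-4. By the q-value that the authors deposited for each pooled peak, 1 of the 31 genes (3.23%), tlp-1, had a promoter peak with a −log10 q of at least 1, beside 18% of all genes. The other 8 best peaks had −log10 q-values from 0.0981 at tbx-37 to 0.861 at hlh-1 and so rank below the 5778 pooled peaks (19.3% of the list) that reach 1. This threshold was chosen after the values were seen. No test was made of these shares, since the genes were listed with earlier results of these data known. With 31 genes, 1 gene is 3.23 percentage points, and the share in replicate 2 lay at the level of the genome while the share in replicate 3 lay below it.

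The regulators were few among the highest pooled peaks. Among the 5000 highest pooled peaks, 1 of the 31 regulators had a promoter summit (3.23%), beside 16.8% of all genes, and among the 10000 highest 5 had one (16.1%), beside 23.3%. The best peaks of the 9 ran from rank 1394 to rank 29215, with a median rank of 8016, against a median of 6849 for the 7827 genes with a pooled peak. Their median signal was 36.6, against 39.4. Per length of promoter window the regulators had 0.364 pooled summits per kb and all genes 0.418. The value of the regulators includes 7 summits at pha-4 alone, and it was not counted without that gene.

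**Figure D1:**
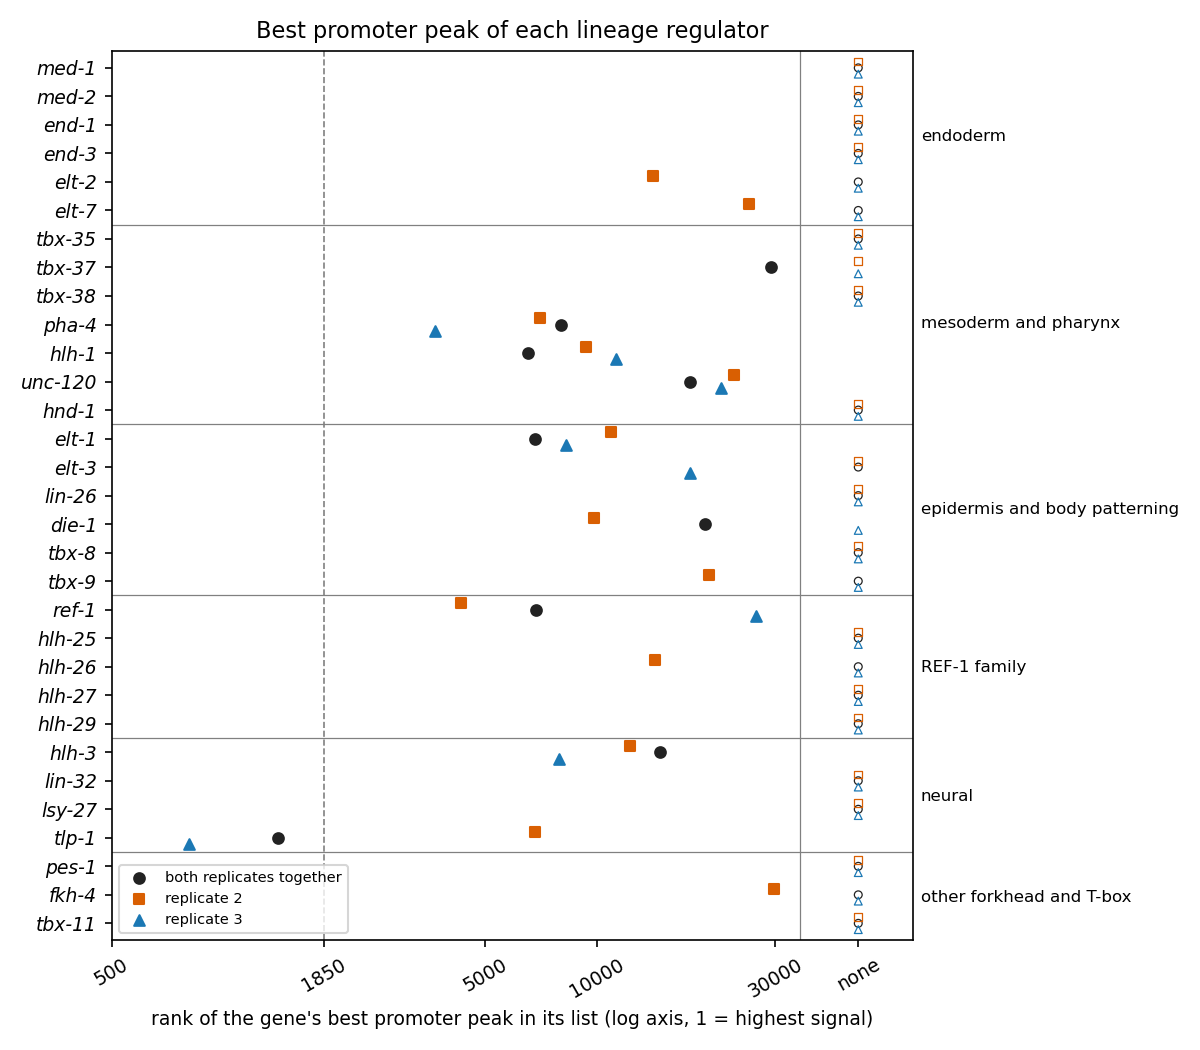
Rank of the best promoter peak of each of the 31 lineage regulators (log axis, 1 is the highest signal) in the pooled list (circles), replicate 2 (squares) and replicate 3 (triangles), with open markers at the right where a list had no summit in the window. The dashed line marks rank 1850, the end of the IDR list in the pooled ranking; 1 pooled circle, tlp-1, lies to the left of it, and 16 genes have open markers in all 3 lists.

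**Figure D2:**
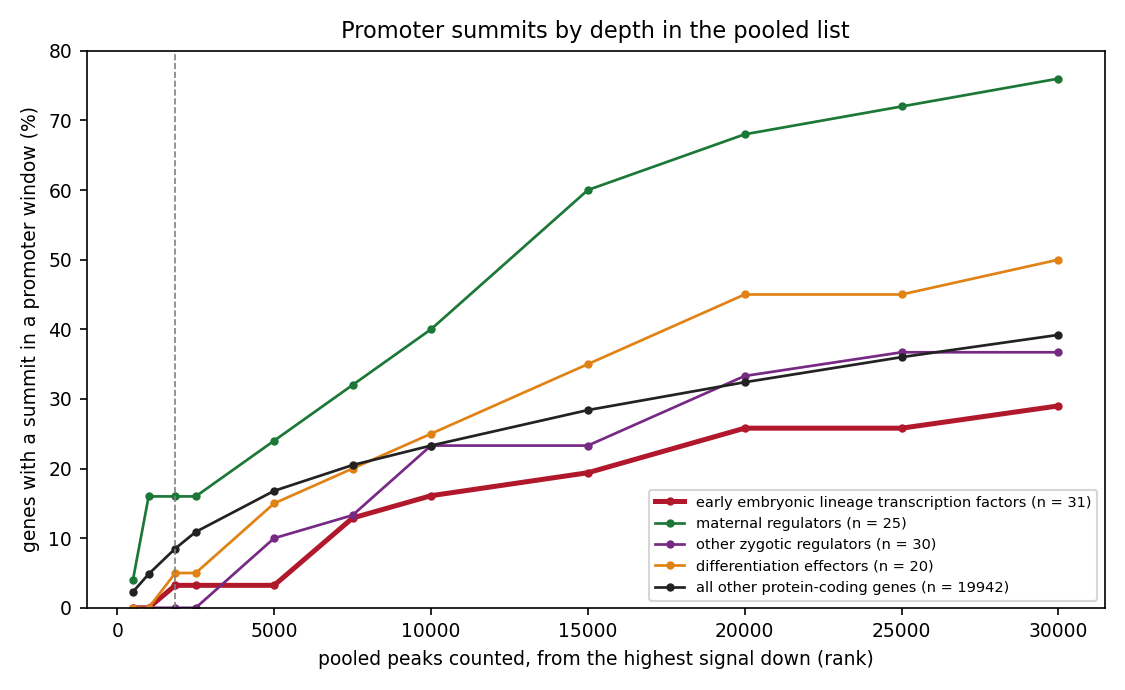
Percent of genes with a pooled summit in a promoter window (vertical axis) as more of the pooled list is counted from the highest signal down (horizontal axis, rank), for the lineage regulators, 3 companion lists and all other protein-coding genes; the dashed line marks rank 1850. The curve of the lineage regulators stands at 3.23% at rank 5000 and at 29% at rank 30000, where the curve of the other genes stands at 39.2%.

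The 6 endoderm regulators had no pooled summit in any promoter window, where 39.2% of all genes had one. Of genes with 1 annotated 5′ end, like 5 of these 6, 32.3% had one. In replicate 2 the count was 2 of 6 (33.3%), beside 41.1% of all genes. The other forkhead and T-box genes were likewise without a pooled summit, at 0 of 3. med-1 and med-2, the GATA-type factors that start both the gut and the MS mesoderm programmes, had none in any of the 3 lists. The same was true of end-1 and end-3, the GATA factors that commit the E founder cell to gut. elt-2 and elt-7, the GATA factors that maintain intestinal identity, each had a summit in replicate 2 alone, at signal 16.1 and rank 14074 for elt-2 and at signal 11.7 and rank 25481 for elt-7. Neither had one in replicate 3 or in the pooled list. Beyond the windows, the nearest pooled summit to end-3 lay 1013 bp upstream, just outside the window, at rank 17027. The nearest to end-1 lay 4075 bp downstream of its 5′ end, that of elt-2 24147 bp downstream and that of elt-7 21299 bp upstream. An IDR peak of rank 242 lay 3285 bp downstream of the 5′ end of med-2, and the 5′ end nearest to that peak was that of brd-1. Another IDR peak, of rank 1067, lay 2369 bp upstream of the 5′ end of end-3, and the 5′ end nearest to it was that of aip-1. No pooled summit lay in the body of any of the 6 genes.

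The promoters of the first gut tiers are shown here because no list had a summit in their windows, with the core of the site of a factor known to act on them in capitals. In each pair below the 250 bases end 1 base before the annotated 5′ end, on the + strand of ce11, as read from the RefSeq genome of that assembly. For med-1 (chrX:12430359-12430608) and med-2 (chrIII:6884253-6884502) capitals mark ATCAT on either strand, the core of the site of the maternal factor SKN-1.
med-1: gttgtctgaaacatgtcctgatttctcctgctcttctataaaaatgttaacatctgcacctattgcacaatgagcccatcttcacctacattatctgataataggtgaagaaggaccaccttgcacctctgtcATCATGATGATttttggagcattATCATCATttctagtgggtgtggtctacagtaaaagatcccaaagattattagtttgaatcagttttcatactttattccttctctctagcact
med-2: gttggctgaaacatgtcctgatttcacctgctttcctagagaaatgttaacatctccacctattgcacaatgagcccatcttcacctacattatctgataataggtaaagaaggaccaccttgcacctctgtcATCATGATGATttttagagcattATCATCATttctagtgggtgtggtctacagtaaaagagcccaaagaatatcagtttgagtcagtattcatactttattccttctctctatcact
For end-1 (chrV:13984878-13985127) and end-3 (chrV:14014445-14014694) capitals mark GTATAC, the core of the site that the MED proteins bind.
end-1: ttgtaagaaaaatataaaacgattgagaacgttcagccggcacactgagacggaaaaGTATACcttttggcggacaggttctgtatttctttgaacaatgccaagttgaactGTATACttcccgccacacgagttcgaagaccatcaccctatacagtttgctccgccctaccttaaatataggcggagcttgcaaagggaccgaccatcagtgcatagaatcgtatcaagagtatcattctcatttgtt
end-3: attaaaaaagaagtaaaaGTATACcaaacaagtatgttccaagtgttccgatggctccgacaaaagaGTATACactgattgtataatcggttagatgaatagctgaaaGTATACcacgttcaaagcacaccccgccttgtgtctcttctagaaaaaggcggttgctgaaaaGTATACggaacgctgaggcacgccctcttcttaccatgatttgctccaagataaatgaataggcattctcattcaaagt
The upstream sequences of med-1 and med-2 held 5 matches each to ATCAT, some of them overlapping, and were identical at 94% of the 250 positions. Those of end-1 and end-3 held 2 and 4 matches to GTATAC and, compared without gaps, were identical at 30.4% of positions. How reads from the similar med copies were placed was not tested. Of the 36-base words in the windows of each med gene, 87.8% occurred once in the genome, and for end-1 and end-3 the share was 100% and 99.9%.

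Mesoderm and pharynx was the group with the most genes counted, with a pooled summit at 4 of 7 (57.1%), beside 39.2% of all genes. In each single replicate it had 3 of 7 (42.9%), beside 41.1% of all genes in replicate 2 and 39.6% in replicate 3. hlh-1, the MyoD homologue of body wall muscle, had its best pooled peak at signal 40.3 and rank 6514, with the summit 104 bp upstream of a 5′ end. Within 13 bp of it replicate 2 had a peak of signal 10.5 and rank 29715, close to the bottom of its list, and within 3 bp replicate 3 had one of signal 20.8 and rank 11251. The position was thus shared by both replicates and its rank was not. In replicate 2 another summit in the window, 330 bp upstream, stood higher, at signal 19.4 and rank 9312. The pooled summit with 100 bases on each side (chrII:4518370-4518570, + strand), the sequence with the highest GC content (51.2%) of the 9 summits, is given with ATCAT in capitals.
hlh-1: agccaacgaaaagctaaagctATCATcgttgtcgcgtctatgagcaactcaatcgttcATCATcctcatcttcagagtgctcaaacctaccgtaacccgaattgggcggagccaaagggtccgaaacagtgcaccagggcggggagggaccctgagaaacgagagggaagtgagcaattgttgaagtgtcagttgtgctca

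pha-4, the FoxA-type organ identity gene of the pharynx, held the most pooled summits of any of the 31 genes, with 7 in the windows of its 3 annotated 5′ ends and a further 7 in the gene body outside them. Its best pooled window peak had signal 36.6 and rank 8016 at 197 bp downstream of an internal 5′ end, just inside the limit of 200 bp and in a coding exon shared by its transcripts. Near that site replicate 2 had signal 21.2 and rank 7532 at an offset of 40 bp, and replicate 3 had signal 17.8 and rank 15605 at an offset of 34 bp. The best replicate 3 summit in the windows lay 826 bp upstream of the outermost 5′ end, at signal 33.1 and rank 3669, where a pooled summit 812 bp upstream had signal 35.6 and rank 8497. The best replicate 2 summit, of signal 21.8 and rank 7044, lay 795 bp upstream of the internal 5′ end, where a pooled summit 808 bp upstream had rank 25790. Similar distances at pha-4 thus belong to different 5′ ends. The highest pooled peak within the gene lay outside the windows, at signal 44.4 and rank 5343. Signal over pha-4 was thus spread over many summits of middle rank and had no single dominant one.

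unc-120, the SRF-type muscle factor, had a pooled peak of signal 24.9 and rank 17721 at 300 bp upstream. Replicate 2 had signal 12.4 and rank 23260 at 431 bp upstream, and replicate 3 had signal 14.9 and rank 21502 at 268 bp upstream. All of these ranks are in the lower part of their lists, and a higher pooled peak, of signal 36.5 and rank 8051, lay in the body of the gene. tbx-37, a T-box gene that acts redundantly with tbx-38 in the ABa lineage, had a pooled peak of signal 17.9 and rank 29215 at 507 bp upstream, close to the bottom of the list. Neither replicate had a summit in its window, and the nearest were 9346 bp away in replicate 2 and 1814 bp away in replicate 3. Its partner tbx-38, tbx-35, the T-box gene that specifies the MS founder cell, and hnd-1, the HAND-type bHLH gene of mesoderm, had no summit in their windows in any list.

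**Figure D3:**
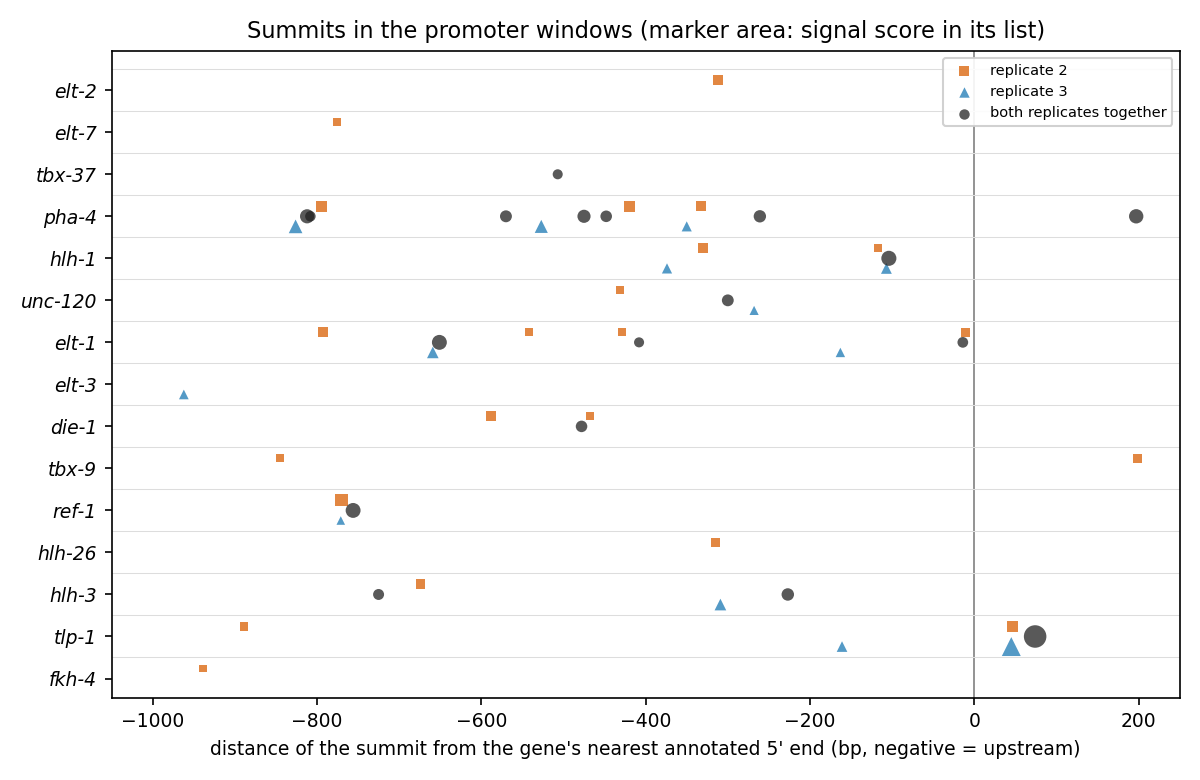
Distance of every summit in the promoter windows from the nearest annotated 5′ end of its gene (horizontal axis, bp, negative is upstream), for the 15 lineage regulators with a summit in at least 1 list. Circles are pooled summits, squares replicate 2 and triangles replicate 3, and marker area grows with the signal score in its list; at genes with several 5′ ends, such as pha-4, markers at like distances can lie at different ends. At tlp-1 the 3 lists coincide near the 5′ end, with pooled, replicate 2 and replicate 3 summits at 74, 46 and 45 bp downstream, while die-1 and tbx-37 have no replicate 3 marker.

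In epidermis and body patterning, 2 of 6 genes had a pooled summit (33.3%), beside 39.2% of all genes. elt-1, the GATA factor that specifies epidermis, had a pooled peak of signal 39.4 and rank 6829 in an intron, 651 bp upstream of the 5′ end of its shortest annotated transcript. Replicate 3 had signal 23.8 and rank 8233 at an offset of 8 bp, and the nearest summit of replicate 2, with signal 11.4 and rank 26535, was 109 bp away. A higher replicate 2 summit, of signal 18.1 and rank 10885, lay 793 bp upstream. elt-1 has 6 annotated 5′ ends, and 2 weaker pooled summits lay in its windows. That of rank 24529 lay 14 bp upstream of the same 5′ end as the best summit. That of rank 29070 lay 408 bp upstream of a different 5′ end of elt-1. The sequence of its best summit with 100 bases on each side (chrIV:9618587-9618787, + strand) begins in a coding exon and runs into the intron, with GATAA, the core of the site bound by GATA factors, in capitals.
elt-1: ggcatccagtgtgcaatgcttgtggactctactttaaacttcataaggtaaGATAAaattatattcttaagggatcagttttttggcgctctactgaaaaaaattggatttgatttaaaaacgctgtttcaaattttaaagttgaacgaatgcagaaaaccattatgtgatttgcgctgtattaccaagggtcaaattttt
die-1, a zinc-finger gene needed for body morphogenesis, had a pooled peak of signal 23.6 and rank 19426 at 478 bp upstream. Replicate 2 had signal 12.4 and rank 23363 within 10 bp of it. A higher replicate 2 summit, of signal 19.0 and rank 9785, lay 588 bp upstream of a different, internal 5′ end of die-1. Replicate 3 had no summit in the windows, and its nearest was 1557 bp from the pooled one. The highest pooled peak of die-1 was in the gene body outside the windows, at signal 53.4 and rank 3742. elt-3, a GATA factor of epidermal cells, had a summit in replicate 3 alone (signal 16.6, rank 17738, 962 bp upstream). tbx-9, which acts redundantly with tbx-8 in morphogenesis, had its best in replicate 2 alone (signal 13.5, rank 19977), at 199 bp downstream and so just inside the limit. tbx-8 had none. lin-26, the zinc-finger gene that keeps epidermal fate, had none in its windows, and a pooled summit of rank 17325 lay 694 bp downstream of a 5′ end, in the body of the gene.

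In the REF-1 family, bHLH genes several of which are known targets of Notch signalling in the early embryo, 1 of 5 genes had a pooled summit. That share, 20%, stood beside 39.2% of all genes. ref-1 had signal 39.4 and rank 6851 at 756 bp upstream. Replicate 2 had signal 26.8 and rank 4327 within 14 bp, and replicate 3 had signal 13.0 and rank 26603 within 15 bp. The position was again shared, while the rank was high in one list and near the bottom of the other. The summit lay between protein-coding genes and inside an annotated non-coding RNA gene, T01E8.10, on the opposite strand (chrII:10217484-10218430). The summit with 100 bases on each side (chrII:10217615-10217815, + strand) is given without capitals, since none of the 7 motifs searched was found in them.
ref-1: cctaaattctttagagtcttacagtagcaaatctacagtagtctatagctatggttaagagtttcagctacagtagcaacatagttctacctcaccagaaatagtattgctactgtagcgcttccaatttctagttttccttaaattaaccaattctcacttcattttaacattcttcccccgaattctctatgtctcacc
hlh-26 had a summit in replicate 2 alone (signal 16, rank 14275, 315 bp upstream), and hlh-25, hlh-27 and hlh-29 had none in any list. For 3 of these genes repeated sequence may limit what reads can show. Of the 36-base words in the windows, 28% were unique in the genome for hlh-29, 73.4% for hlh-25 and 73.7% for hlh-27. The 250 bases upstream of hlh-29 were identical to those of its near copy hlh-28 at 99.2% of positions. Among all genes with under 80% unique words, 19.1% had a pooled summit, beside 41% of the others, and of the regulators 0 of 3 and 9 of 28 did. Without a value for reads that map to several places, the part of this in the empty promoters was not tested.

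The strongest peak of the set was at tlp-1, a gene that the list used here places in the neural group. It describes that gene and not the group. tlp-1, a zinc-finger gene known for its part in patterning the tail, had a pooled peak of signal 89.9 and rank 1394, with a deposited −log10 q-value of 3.53. Replicate 2 had signal 22.1 and rank 6814, and replicate 3 had signal 63.5 and rank 804. The summits lay 74, 46 and 45 bp downstream of the 5′ end in the pooled, replicate 2 and replicate 3 lists, within 29 bp of each other. The site was thus shared, but it stood far higher in replicate 3 than in replicate 2, where it would not fall among the 1850 highest. Of all protein-coding genes 6.59% had a higher promoter peak in the pooled list. It was the single one of the 31 in the IDR list, where the lowest signal was 77.9, and the next of the 31, hlh-1, had 40.3. A further 3 pooled summits lay in the body of tlp-1 outside the window, the best at signal 57.6 and rank 3228. The part of the peak upstream of the 5′ end (chrIV:13704083-13704225, − strand, 143 bases) is shown as the flank of the one IDR peak, with ATCAT in capitals.
tlp-1: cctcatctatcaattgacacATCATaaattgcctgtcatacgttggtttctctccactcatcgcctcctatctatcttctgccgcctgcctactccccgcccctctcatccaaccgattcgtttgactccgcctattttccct
hlh-3, an achaete-scute type proneural gene, had a pooled peak of signal 27.5 and rank 14737 at 227 bp upstream. Replicate 3 had signal 24.2 and rank 7885 at 309 bp upstream and replicate 2 had signal 17.2 and rank 12209 at 674 bp upstream. A second pooled summit, of signal 21.4 and rank 22768, lay 725 bp upstream, so each replicate summit was nearer to a different pooled one. lin-32, the atonal homologue, had none in its window. Its nearest pooled summit was 1038 bp downstream of the 5′ end at rank 25254, and an IDR peak of rank 214 lay 2830 bp downstream of it. lsy-27, a zinc-finger gene that acts in the left-right asymmetry of taste neurons, had none, and its nearest pooled summit was 31582 bp away. Of the other forkhead and T-box genes, pes-1 and tbx-11 had no summit in any list and fkh-4 had one in replicate 2 alone, at signal 10.6 and rank 29672, close to the bottom of the list.

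Agreement between replicates at these genes can be read against other promoter peaks of the same rank. Of the pooled promoter peaks ranked 1 to 1850, 92.4% had a summit of each replicate within 100 bp. The share was 72.9% for ranks 1851 to 5000, 40.9% for 5001 to 10000, 15.1% for 10001 to 20000 and 1.71% for 20001 to 30000. Of the 4 regulators with best peaks ranked 5001 to 10000, hlh-1, ref-1 and pha-4 were matched in both replicates and elt-1 missed by 9 bp in replicate 2. Of the 4 that ranked lower, hlh-3, unc-120, die-1 and tbx-37, none was matched in both, beside the low shares at those ranks. Among all genes with a pooled peak, 46.5% had their best summit matched in both. A window without a summit in 1 list of 30000 peaks is therefore no sign of absence at the lower ranks. Of the 31 genes, 16 had no summit in their windows in any of the 3 lists (51.6%), against 46.6% of all genes (9309 genes).

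All 9 best pooled summits had the regulator's own 5′ end as the nearest of any protein-coding gene. None lay in a window of another gene and none lay within 500 bp of a tRNA, snoRNA or snRNA gene. Most other genes with a summit were alike in 2 of these points. Of other genes 39.2% had a pooled summit, 34% when only the nearest 5′ end was counted and 38.4% without summits near small RNA genes. The share of other genes with a summit in no second window, or upstream, was not counted. Of the 9, 7 were upstream of the 5′ end and 2, tlp-1 and pha-4, downstream. Gene bodies outside the windows held a pooled summit in 9 of the 31 genes (29%), beside 30% of all genes, with median gene lengths of 1853 and 2027 bp. The nearest IDR summit was at a median distance of 12591 bp from the regulators and 19783 bp from other genes. For 7 of the 31 regulators it was within 5 kb, a share close to the 20.9% of all genes. Apart from that at tlp-1 these peaks lay outside the windows. At elt-3, hlh-29 and lin-32 the regulator's own 5′ end was still the nearest to the IDR peak, of rank 1361, 691 and 214.

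Several properties of a promoter move with the share of genes that hold a summit, and the regulators were set beside other genes on each. Genes with 1 annotated 5′ end had a pooled summit in 32.3% of cases, those with 2 in 52.1% and those with 3 or more in 69.5%, and the regulators in 5 of 21, 1 of 5 and 3 of 5. The set had a single 5′ end in 67.7% of its genes, against 73.7% of all, and its windows had a mean length of 1594 bp, against 1453 bp. By GC content of the windows, the share ran from 24.8% of all genes below the first quartile of GC content through 37.3% and 44.9% in the next classes to 49.8% above the last quartile. The regulators had 0 of 3, 2 of 12, 4 of 10 and 3 of 6 in these classes. Their median GC content was 35.1%, the same to within 0.1 percentage points as the 35.05% of all genes. The 9 with a pooled summit had a median of 36.1% (range 34.3 to 39.9%) and the 22 without one 34.9% (29.4 to 44.9%), against 35.9% and 34.4% for other genes with and without. tbx-38, the most GC-rich at 44.9%, had no summit. By chromosome, X held 7 of the regulators and 0 of them had a pooled summit, where 42% of all genes on X did. On chromosome III 1 of 6 did, where 54.7% of all genes did, and on V 1 of 5, where 25.4% did. On II 4 of 9 did (37.3% of all genes), on IV 2 of 3 (36.2%) and on I 1 of 1 (52%). The parts of base composition and of chromosome in the counts were not tested.

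**Figure D4:**
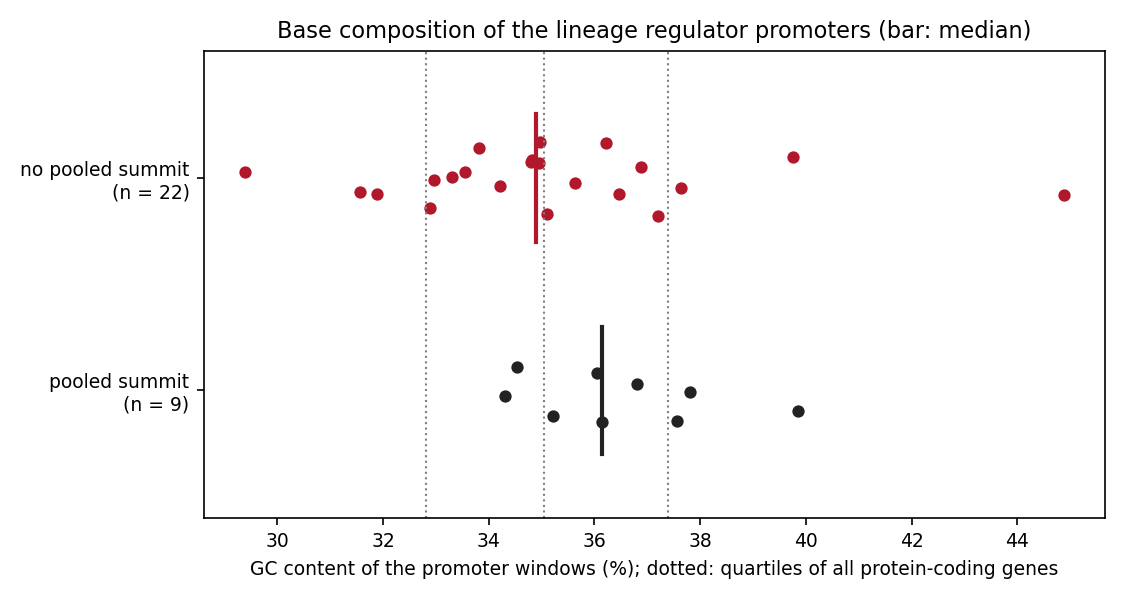
GC content of the promoter windows (horizontal axis, percent) of the 22 lineage regulators without and the 9 with a pooled summit; each point is a gene, its height within a row is spread for legibility, bars are medians and dotted lines are the quartiles of all protein-coding genes. The medians are 34.9% and 36.1%, the ranges overlap, and no regulator with a summit lies below 34.3%.

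The promoters were also searched for 7 short motifs on both strands, in the 250 bases upstream of the outermost 5′ end. GTATAC, the core of the MED site, was present in 7 of the 31 regulators (22.6%), beside 2.84% of all 19973 promoters of that length. The 7 were end-1, end-3, tbx-35, hlh-25, hlh-27, hlh-29 and fkh-4, and none of them had a pooled summit. Of all 31 regulators, 22 had none. The share with a pooled summit among the 568 promoters with GTATAC in the genome was not counted. The unique share of 36-base words in the windows was 73.4% for hlh-25, 73.7% for hlh-27 and 28% for hlh-29. Repeated sequence may limit what reads can show there. ATCAT was present in 61.3% of the regulators and 47.1% of all promoters, GATAA in 54.8% and 52.2%, and TATAAA in 38.7% and 35.2%. TGGGAA, the core of the site of the Notch effector LAG-1, was in 19.4% and 15.4%, GTGTGA, part of a T-box site on its opposite strand, in 9.68% and 10.5%, and CAGCTG, an E-box, in 3.23% and 4.28%. Within 100 bases of the 9 best summits, GTATAC and CAGCTG were in 0, beside 1.97% and 4.62% of 6648 promoter summits. GATAA was in 2 of the 9 (34.3% of all), ATCAT in 2 (32.2%), TATAAA in 2 (19.2%), and TGGGAA and GTGTGA in 1 each (12.5% and 9.19%). GC content around the summits ran from 30.8% at unc-120 to 51.2% at hlh-1, with 44.3% at tlp-1, against a median of 38.3% over all promoter summits. These matches describe the letters in the windows and were not tested.

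Lists of genes that act before, beside and after the lineage regulators were counted in the same way. Of 25 maternal regulators, 19 had a pooled summit (76%) and 4 an IDR summit (16%), beside 39.2% and 8.51% of all genes. The 4 were mex-1, an RNA-binding protein of the early blastomeres (signal 151, rank 372), spn-4, an RNA-binding protein (signal 134, rank 519), efl-1, an E2F-type factor (signal 127, rank 605), and lit-1, the Nemo-like kinase of the Wnt-dependent divisions (signal 113, rank 802). The summits of mex-1 and spn-4 lay nearer to the 5′ ends of W03C9.5 and spe-39. Windows of the maternal list had a mean length of 1912 bp, against 1453 bp for all genes. A single 5′ end was annotated for 52% of the maternal list and 73.7% of all genes. The part of these in the maternal share was not tested. Of 30 other zygotic regulators, 11 had a pooled summit (36.7%) and 0 an IDR summit, close to the 29% and 1 gene of the lineage set. Of 20 differentiation effectors, genes of the finished tissues, 10 had a pooled summit (50%) and 1 an IDR summit, ajm-1, a component of epithelial junctions (signal 86.6, rank 1499), with 3 tRNA genes within 500 bp of its summit. Of 63 ceh homeobox genes 47.6% had a pooled and 4.76% an IDR summit, and of 269 nhr nuclear hormone receptor genes 33.1% and 3.35%. Of 78 genes of ribosomal proteins 96.2% and 74.4% had them. The pooled share of the lineage regulators was below that of the nhr genes by little more than 1 gene of 31. Other measures went either way. The order was the same in replicate 3 (25.8% and 32.3%) and among the 5000 highest pooled peaks (3.23% and 7.06%). It was opposite in replicate 2 (41.9% and 34.9%) and among the 10000 highest pooled peaks (16.1% and 15.2%). It was also opposite in both replicates (22.6% and 20.8%) and with the best summit matched (12.9% and 9.67%). Pooled summits per kb of window were 0.364 and 0.310. The 0.364 rests in large part on the 7 summits of pha-4, so the order of these 2 densities may be that of 1 gene. The IDR share of the regulators was within 2 percentage points of those of the ceh, nhr and differentiation lists. Differences between lists were not tested.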

How the data were processed

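The deposited files are peak lists of F13C5.2-GFP ChIP-seq in C. elegans early embryos, replicates 2 and 3. The authors called peaks on each replicate and on both together against 2 control alignments, and derived the IDR list from them, per the deposited file descriptions. The IDR threshold, the aligner and the caller are not stated in those descriptions or in the labels. The deposited signal score ranked peaks within 1 list, and the deposited −log10 q-value was used to describe the pooled peaks. Summits on ce11 were set against promoter windows (1000 bp upstream to 200 bp downstream of every 5′ end) of 19973 genes in Ensembl release 115 and the RefSeq genome of the same assembly. Unique sequence was counted in 36-base words. The ce10 lists and the control lists were not used here. In a check on simulated data, 200 of 200 planted summits were recovered.

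All 31 genes are named, with up to 4 genes of highest IDR signal in the maternal, other zygotic and differentiation lists, genes nearest to a named summit and the tagged gene. T01E8.10 and the locations of weaker summits were added after their values were seen. The members and lists were chosen with earlier results of these data known, so no p-value is given. Alternatives were other windows, 5′ ends, overlap rules, uniqueness, the upper part of each list and single replicates. Biological replicates are named in the labels without further detail. Python 3.11.15, numpy 2.4.6, pandas 2.3.3 and matplotlib 3.10.9 were used.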

Additional observations from a re-analysis of the deposited data

How the results depend on the processing

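The count of lineage regulators with a pooled summit, 9, was 6 among the 15000 highest peaks, 7 in a window of 500 bp upstream to 100 bp downstream, 12 in one of 2000 bp to 500 bp, and 8 to 13 in single replicates. The share of other genes, 39.2%, was 29.9% and 49.7% in those windows, 36.4% at the outermost 5′ end, 43.5% with any overlap, 34% at the nearest 5′ end, 41% with 80% unique words, 28.4% among the 15000 highest peaks and 39.6 to 41.1% in single replicates. In replicate 2 alone the regulators were not below the other genes. The IDR count, 1, was 0 among the 925 highest IDR peaks, since tlp-1 ranks 1394, and 1 under the other windows, 5′ ends, overlap, small RNA and unique-word settings; single replicates have no IDR list. The median rank, 8016, was 14737 in the narrow window, which by construction drops the best summits of pha-4, elt-1, ref-1 and tbx-37, 11617 at the outermost 5′ end, which drops internal ends, and 9742 to 12209 in single replicates. Both replicates had a summit for 7 genes, and within 100 bp of each other in the windows for 3, tlp-1, hlh-1 and ref-1. With pooled peaks of −log10 q of at least 1, a setting added after seeing the data, the count was 1 and the share of other genes 18.1%. The read depth is unknown, so a summit missing from a list may be one below its lowest score. No paired analysis was possible because the series has 1 group.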
